A study of Mus musculus with 6 samples.

Results

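The genes described here are 25 mouse genes that mark neurons, chromaffin cells and their neural crest and Schwann cell companions, out of 24749 gene identifiers in a table of RNA levels from whole embryonic kidneys. They were chosen by symbol from a named list, matched through their Ensembl identifiers, and all 25 were found, on 14 chromosomes. By role, 20 are neuronal and 5 are neural crest or Schwann cell genes. Of the 20, 5 mark noradrenergic identity, 3 encode secretory granule proteins, 7 belong to the neuronal cytoskeleton or growth cone, 2 encode neuronal RNA-binding proteins, 2 act in synaptic vesicle release, and 1 is a neurotrophin receptor.

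The knockout group held 3 libraries from kidneys with the genotype Foxd1cre; Yapc/c;Tazc/c, in which a Cre recombinase under Foxd1 control acts on conditional alleles of Yap1 and Wwtr1 (the gene for TAZ), the transcriptional co-activators of the Hippo pathway. The wild-type group held 3 libraries from Cre-negative kidneys. Both groups came from embryos at E15.5 (embryonic day) of a mixed strain, and whole dissected kidneys were sequenced. Foxd1 marks the stromal lineage of the kidney, so Cre was not directed at neurons or Schwann cells, and every cell type left on the dissected organ contributed to each value, so that fewer cells of a type and less RNA per cell cannot be told apart. The labels used here do not say whether a library came from 1 embryo or a pool, or from which litter. The p-values therefore measure only how far these libraries scatter, part of which may be technical.

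The kidney receives sympathetic nerves whose axons grow in along its arteries, while their cell bodies lie outside the organ in ganglia. Chromaffin cells of the adrenal medulla, which lies next to the kidney, share the noradrenergic programme of these neurons. Schwann cells and their precursors travel with the axons and keep their RNA inside the organ. In neurons and chromaffin cells tyrosine hydroxylase makes the precursor that dopamine beta-hydroxylase turns into noradrenaline, which is stored in granules packed with chromogranins and secretogranins.

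Levels are given in FPKM, fragments per kilobase of transcript scaled to the library's size, so they can be compared between genes. Between about 12743069 and 15496889 fragments stood behind each library. A single fragment on a transcript of 2 kb equals 0.0323 to 0.0392 FPKM at that depth. Wwtr1 averaged 12.9 ± 0.635 FPKM in knockout kidneys and 18.8 ± 1.26 FPKM in wild-type kidneys (SD, n = 3 each; limma log2 change -0.51, adjusted p = 0.0235). Yap1 averaged 45.4 ± 2.94 FPKM in knockout kidneys and 51.0 ± 4.95 FPKM in wild-type kidneys and did not pass the test (limma adjusted p = 0.378). All 12 nephron and ureteric markers, all 10 stromal and mural markers and all 6 endothelial markers passed the filter on low values. So did 8 of 10 skeletal muscle markers, so passing does not by itself identify the tissue. Among the stromal and mural markers Acta2, the actin of smooth muscle and mural cells, was called. It was at 19.3 ± 3.22 FPKM in knockout kidneys and 35.2 ± 1.97 FPKM in wild-type kidneys (SD, n = 3 each; limma log2 change -0.84, adjusted p = 0.0230, range 0.00794 to 0.127 over the alternatives, and 0.0543 without wild-type library 3).

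Wild-type library 3 stood apart from the other 5 libraries before any comparison of genotypes. It held 121 FPKM of Xist, the RNA that coats the inactive X chromosome, against 0.108 to 0.155 FPKM in the other 5 libraries. The Y-linked gene Eif2s3y was at 0.0875 FPKM in it, against 41.0 to 49.8 FPKM in the others. It also carried skeletal muscle transcripts, with a summed level of 125 FPKM over 10 marker genes, against 14.9 to 27.2 FPKM in knockout libraries and 11.4 and 19.1 FPKM in wild-type libraries 1 and 2. Results on genotype are therefore given with and without this library.

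Nerve and chromaffin transcripts were concentrated in wild-type library 3. Of the 25 genes, 23 had their highest value there, including all 20 neuronal genes, with Sox10 and Erbb3 as the exceptions. The summed level of the 20 neuronal genes was 25.4, 27.5 and 26.3 FPKM in knockout libraries 1 to 3, against 25.02, 23.7 and 233.8 FPKM in wild-type libraries 1 to 3. The knockout libraries and the first 2 wild-type libraries thus lay between 23.7 and 27.5 FPKM, and wild-type library 3 was 8.49 times the highest of them. In those 5 libraries Ngfr, Gap43 and Elavl4, averaging 8.60, 5.58 and 4.01 FPKM, made up most of the sum. That sum therefore says little about the lower genes. The value of wild-type library 3 was at least 2 times the highest of the other 5 libraries for 19 of the 25 genes, at least 5 times for 15 and at least 10 times for 10. Ratios over levels of a few fragments are imprecise. In the other 5 libraries 17 of the 25 genes stayed under 1 FPKM throughout.

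**Figure D1:**
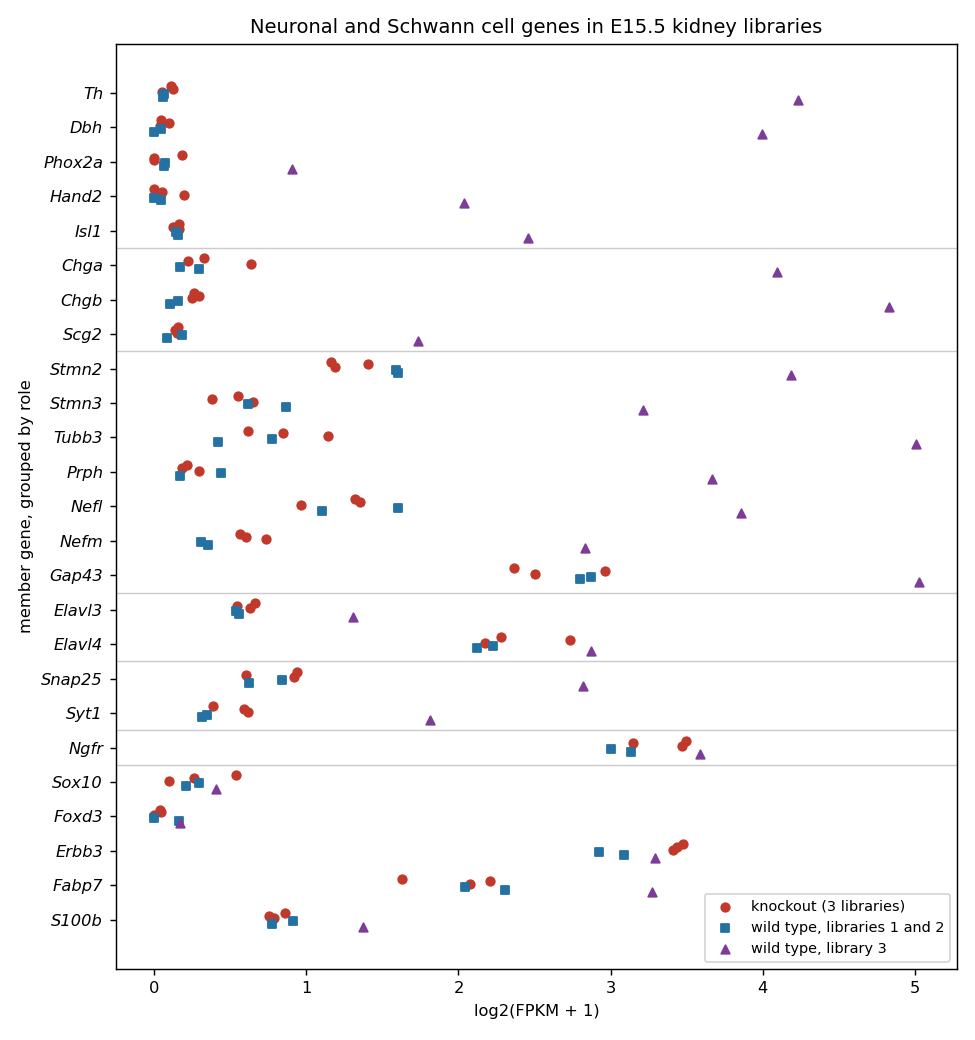
Level of each of the 25 genes, as log2(FPKM + 1), in every library, with genes grouped by role and knockout, wild-type 1 and 2, and wild-type 3 libraries marked by red circles, blue squares and purple triangles. The triangles stand to the right of all other points for 23 genes, and most other points for noradrenergic and granule genes lie near 0.

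The genes of noradrenergic identity were close to the detection limit in all libraries but wild-type 3. Th (tyrosine hydroxylase; chromosome 7, 142892752 to 142931128, GRCm38) was at 0.0806, 0.0918 and 0.0380 FPKM in knockout libraries, against 0.0462, 0.0415 and 17.8 FPKM in wild-type libraries. Dbh (dopamine beta-hydroxylase; chromosome 2, 27165233 to 27183200) was at 0.0302, 0.0689 and 0.0285 FPKM in knockout libraries, against 0.0347, 0 and 14.9 FPKM in wild-type libraries. Outside wild-type library 3 both enzymes of the noradrenaline pathway were thus at the level of a few fragments in either genotype, and the values overlapped.

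The transcription factors of the same programme followed that pattern at lower levels. Isl1, a LIM homeodomain factor of sympathetic and sensory neurons, was at 0.121, 0.0925 and 0.118 FPKM in knockout libraries, against 0.107, 0.115 and 4.48 FPKM in wild-type libraries. Hand2, a basic helix-loop-helix factor of sympathetic neurons, was at 0, 0.0352 and 0.146 FPKM in knockout libraries, against 0, 0.0319 and 3.11 FPKM in wild-type libraries. Its exons overlap those of the antisense gene Hand2os1, so without known strand the reads of the pair cannot be told apart. Phox2a, the paired homeodomain factor that activates Dbh, was at 0.133, 0 and 0 FPKM in knockout libraries, against 0.0510, 0.0458 and 0.874 FPKM in wild-type libraries. It did not pass the filter on low values and shares exonic sequence with Inppl1 on the opposite strand. Summed over the 5 noradrenergic genes, the level was 0.365, 0.288 and 0.330 FPKM in knockout libraries and 0.239, 0.234 and 41.2 FPKM in wild-type libraries.

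The granule proteins of chromaffin cells and neurons were likewise near 0 outside wild-type library 3. Chgb (chromogranin B; chromosome 2, 132781278 to 132795079) was at 0.199, 0.227 and 0.187 FPKM in knockout libraries, against 0.114, 0.0770 and 27.4 FPKM in wild-type libraries. On its single annotated transcript this is about 7.97, 7.96 and 7.96 fragments in knockout libraries, against 3.99, 2.99 and 1000.5 fragments in wild-type libraries. On the log2(FPKM + 1) scale Chgb was the member with the largest excess of wild-type library 3, and leaving that library out its knockout values lay above those of the 2 wild-type libraries at a depth of under 10 fragments each. Chga (chromogranin A) was at 0.257, 0.167 and 0.554 FPKM in knockout libraries, against 0.126, 0.227 and 16.0 FPKM in wild-type libraries. Scg2 (secretogranin II), which did not pass the filter, was at 0.116, 0.0994 and 0.110 FPKM in knockout libraries, against 0.133, 0.0600 and 2.32 FPKM in wild-type libraries. The knockout and first 2 wild-type libraries overlapped for Chga and Scg2.

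The promoters of these genes are shown because Th and the 3 granule genes were high together in wild-type library 3 and share a sequence element. RefSeq promoter windows (GRCm38.p6, 250 bases before to 50 after a transcript start) were present for 18 of the 25 genes. A gene counted once if any of its windows matched, while the percentages below count single windows, so the units differ. The cAMP response element TGACGTCA, the palindrome bound by the factor CREB, was in the windows of 4 of these 18, namely Th, Chgb, Scg2 and Foxd3, and in 1.79% of all 32851 windows, with both strands searched. With its seventh base left free (TGACGTNA) it was found in 5 of 18, Chga being added, and in 2.93% of all windows. The shorter TGACG, which lies inside both, was found in 9 of 18 and in 20.8% of all windows, and TATAAA in 3 of 18 (Chga, Elavl3 and Prph) and in 13.6% of all windows. The 30 bases around the element, 5′ to 3′ on the gene's strand with the element in capitals, are as follows.
Th: cagaggggcttTGACGTCAgcctggccttt
Chga: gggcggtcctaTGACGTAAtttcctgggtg
Chgb: gggctgctccgTGACGTCAgggctgagcga
Scg2: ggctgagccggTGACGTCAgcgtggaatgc

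These stretches lie at chr7:142900022-142900051 (minus strand) for Th, chr12:102554886-102554915 (plus strand) for Chga, chr2:132781559-132781588 (plus strand) for Chgb and chr1:79440076-79440105 (minus strand) for Scg2. Counted from the RefSeq start, with -1 as the base before it, the element begins at -45 in Th, -44 in Chga, -72 in Chgb and -68 in Scg2. For Chgb and Scg2 the stretch falls inside the first exon of a GENCODE transcript that starts further upstream. The wider stretch before Th, from -150 to -20 (chr7:142900015-142900145, minus strand), reads as follows.
Th: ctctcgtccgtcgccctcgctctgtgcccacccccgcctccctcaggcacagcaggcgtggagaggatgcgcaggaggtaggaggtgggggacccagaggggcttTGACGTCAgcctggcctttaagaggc
A match describes these letters only. Foxd3 also holds the element in its window and was at 0.127 FPKM in wild-type library 3, where Th was at 17.8 FPKM.

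The 7 genes of the neuronal cytoskeleton and growth cone had a summed level of 8.53, 11.8 and 9.57 FPKM in knockout libraries, against 12.2, 10.7 and 119 FPKM in wild-type libraries. Gap43, the growth cone protein of extending axons, was at 4.15, 6.80 and 4.67 FPKM in knockout libraries, against 6.31, 5.97 and 31.6 FPKM in wild-type libraries. Tubb3, the neuronal beta-tubulin, was at 0.536, 0.798 and 1.21 FPKM in knockout libraries, against 0.709, 0.340 and 31.1 FPKM in wild-type libraries. Both genes reached about the same level in wild-type library 3, but Gap43 had a measurable level in all other libraries and Tubb3 hardly any.

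Stmn2, a microtubule regulator of growing neurites, was at 1.23, 1.64 and 1.28 FPKM in knockout libraries, against 2.00, 2.04 and 17.2 FPKM in wild-type libraries. It was the only one of the 25 genes whose knockout values lay wholly below the wild-type values, with wild-type library 3 or without it. Its relative Stmn3 was at 0.467, 0.303 and 0.566 FPKM in knockout libraries, against 0.533, 0.822 and 8.26 FPKM in wild-type libraries, with overlap.

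The intermediate filament genes did not move together in the libraries other than wild-type 3. Nefl, the light neurofilament chain, was at 1.501, 1.55 and 0.955 FPKM in knockout libraries, against 2.04, 1.15 and 13.5 FPKM in wild-type libraries. Nefm, the medium chain, was at 0.478, 0.522 and 0.667 FPKM in knockout libraries, against 0.239, 0.279 and 6.13 FPKM in wild-type libraries. Exons of Nefl and Nefm overlap on opposite strands, so their reads may be mixed. Prph (peripherin), the filament of peripheral neurons, was at 0.160, 0.137 and 0.226 FPKM in knockout libraries, against 0.357, 0.124 and 11.7 FPKM in wild-type libraries. Without wild-type library 3 the knockout values of Nefm lay above those of wild type, while Nefl and Prph overlapped.

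The RNA-binding proteins of the Hu family stabilise neuronal messages. Elavl4 had a clear level in every library, while Elavl3 was at most 0.583 FPKM outside wild-type library 3. Elavl4 was at 3.86, 5.65 and 3.52 FPKM in knockout libraries, against 3.67, 3.34 and 6.31 FPKM in wild-type libraries. Elavl3, whose exons overlap those of Gm49318 on the same strand, was at 0.583, 0.462 and 0.548 FPKM in knockout libraries, against 0.455, 0.472 and 1.47 FPKM in wild-type libraries. Wild-type library 3 exceeded the highest other library by 1.12 times for Elavl4 and 2.52 times for Elavl3, far less than for the granule genes.

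Among genes of vesicle release, Snap25, a component of the membrane fusion complex, was at 0.917, 0.523 and 0.896 FPKM in knockout libraries, against 0.790, 0.541 and 6.05 FPKM in wild-type libraries. Syt1, the calcium sensor of fast release, was at 0.306, 0.504 and 0.534 FPKM in knockout libraries, against 0.272, 0.245 and 2.51 FPKM in wild-type libraries. Without wild-type library 3 the groups overlapped for Snap25, and for Syt1 the knockout values lay above those of wild type.

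Ngfr, the p75 neurotrophin receptor, which is made by neural crest cells and also outside the nervous system, behaved unlike most other neuronal genes. It was at 10.3, 7.87 and 10.1 FPKM in knockout libraries, against 7.02, 7.77 and 11.04 FPKM in wild-type libraries. Wild-type library 3 exceeded the highest of the other libraries by only 1.07 times, and without it all 3 knockout values lay above both wild-type values, the closest pair being 7.87 and 7.77 FPKM.

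Summed, the 5 neural crest and Schwann cell genes showed little excess in wild-type library 3, but Erbb3 made up most of the sum elsewhere. Wild-type library 3 was 2.21 times the highest other library for Fabp7 and 1.80 times for S100b. For Foxd3, Erbb3 and Sox10 it was 1.06, 0.864 and 0.721 times. The summed level of the 5 was 13.5, 14.4 and 13.7 FPKM in knockout libraries, against 10.8, 12.4 and 19.5 FPKM in wild-type libraries. Fabp7, a fatty acid binding protein of glial precursors, accounted for most of the difference, with 2.09, 3.62 and 3.22 FPKM in knockout libraries, against 3.12, 3.93 and 8.68 FPKM in wild-type libraries. S100b, a calcium-binding protein of Schwann cells, was at 0.816, 0.685 and 0.729 FPKM in knockout libraries, against 0.886, 0.708 and 1.59 FPKM in wild-type libraries. Both were highest in wild-type library 3 and overlapped between the genotypes in the other libraries.

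Sox10 and Foxd3, the transcription factors that define neural crest derivatives and early Schwann cells, were near 0 everywhere. Sox10 was at 0.456, 0.20 and 0.0708 FPKM in knockout libraries, against 0.230, 0.155 and 0.329 FPKM in wild-type libraries, with its highest value in knockout library 1. Foxd3, which shares exonic sequence with Gm23366, was at 0.0289, 0.0330 and 0 FPKM in knockout libraries, against 0, 0.119 and 0.127 FPKM in wild-type libraries. The label of Schwann cells was thus not borne out by its defining factors, and the 3 other genes of the group, Erbb3, Fabp7 and S100b, were measured well above them.

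Erbb3, the neuregulin receptor on which Schwann cell precursors depend and which epithelia also express, was the only member with all knockout values above all wild-type values. It was at 10.1, 9.83 and 9.63 FPKM in knockout libraries, against 6.57, 7.49 and 8.77 FPKM in wild-type libraries. The lowest knockout value, 9.63 FPKM, stood above 8.77 FPKM in wild-type library 3. Markers of the nephron lineage and ureteric tree had a summed level over 12 genes of 263.9 to 286.6 FPKM in knockout libraries and 223.3 to 245.7 FPKM in wild-type libraries. Of the 12, 5 were higher and 1 lower with an unadjusted p under 0.05, against 9.14% and 6.94% of all genes. None of the 12 was called, and none was near 0. Their fitted changes were above 0 for 11 and below for 1, or 7 and 5 without wild-type library 3. The part of epithelial cells in the Erbb3 values was not tested.

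Set among all 16899 genes that passed the filter, an average of 0.5 FPKM or more, the 25 genes were not evenly spread over the libraries. Wild-type library 3 held the highest value for 15.1% of all genes, a share within the range of 11.4% to 23.4% in the other libraries, but for 20 of the 21 members that passed. The remaining member, Erbb3, was highest in knockout library 1. A gap of at least 1 on the log2(FPKM + 1) scale above the highest other library was found for 117 genes in wild-type library 3, of which 15 were members, and for 20 to 34 genes in each other library, none of them members. For 9 of the 20 the filter fixed this, since they passed only through wild-type library 3. These counts are descriptions, because the list was drawn up with the nerve transcripts of this library known.

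The 10 genes with the largest excess of wild-type library 3 were Xist, Gm4737, Chgb, Th, Dbh, Tubb3, Mir339, Mir669a-2, Hand2os1 and Mir6414, so that 4 of 10 were members. Chga and Prph ranked at 13 and 18. The excess on the log2(FPKM + 1) scale was 6.72 for Xist, 4.53 for Chgb, 4.11 for Th, 3.90 for Dbh and 3.86 for Tubb3. Among members that passed the filter Elavl4, Ngfr and Erbb3 had the lowest ranks, at 832, 1115 and 10311.

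**Figure D2:**
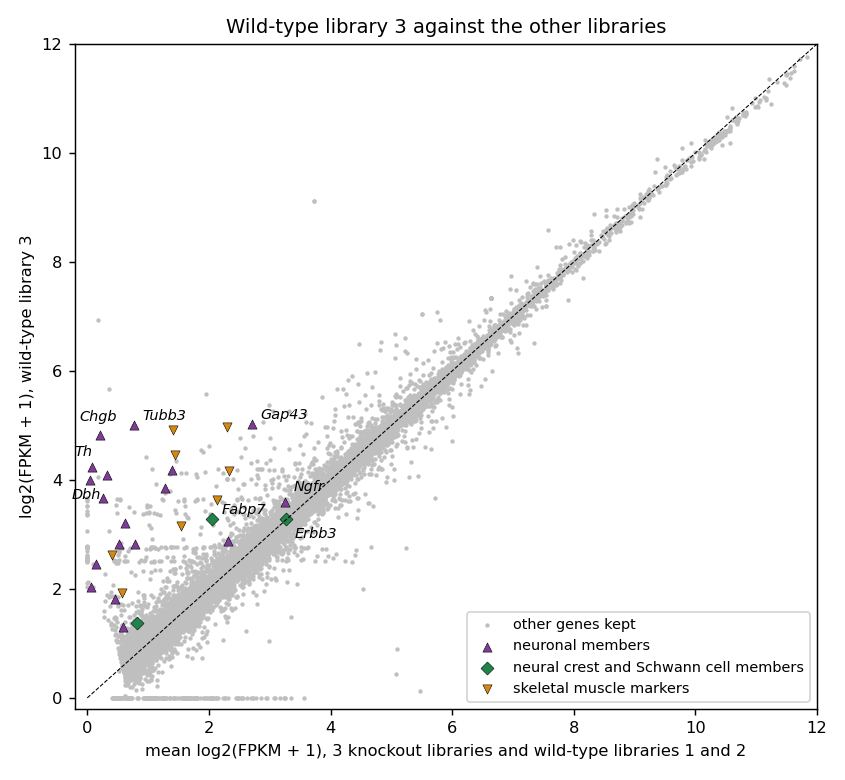
Level of each gene that passed the filter in wild-type library 3 (vertical axis) against the mean of the 3 knockout libraries and wild-type libraries 1 and 2 (horizontal axis), both as log2(FPKM + 1), with equality dashed. Purple triangles (neuronal members) and orange triangles (skeletal muscle markers) lie mostly above the line, while the green diamonds for Erbb3 and, less so, S100b and Fabp7 lie nearer to it.

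Knockout kidneys were then compared with all 3 wild-type kidneys, to ask whether loss of Yap1 and Wwtr1 from the stroma moved nerve or Schwann cell transcripts. Over all genes, limma called 124 of 16899 at an adjusted p under 0.05, which is 0.734%, with 22 higher and 102 lower in knockout kidneys. Of the 21 members that passed the filter, 0 were called, and 1 had an unadjusted p under 0.05, namely Erbb3, which was higher in knockout kidneys, as were 9.14% of all genes at that threshold. No member was lower at an unadjusted p under 0.05, against 6.94% of all genes. The log2 change of Erbb3 was 0.34 (SE 0.10, 95% interval 0.11 to 0.58, adjusted p = 0.182).

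The fitted changes of the neuronal genes were negative, except for Ngfr at 0.13, but had intervals too wide to set a direction. Over all 25 genes, fitted with no filter, the median log2 change was -0.60, with 23 below 0, beside -0.0045 for all genes. It was -1.07 with a pseudocount of 0.1, -0.96 without wild-type library 1 and -0.94 without wild-type library 2. For Th the log2 change was -1.36 (SE 1.30, 95% interval -4.80 to 2.09, adjusted p = 0.658). For Chgb it was -1.43 (SE 1.47, 95% interval -5.30 to 2.45, adjusted p = 0.677). The median half-width of the intervals over the 21 members was 1.90. These changes were set by wild-type library 3, as the values by library above show.

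Without wild-type library 3, limma called 147 of 16899 genes, or 0.87%, with 51 higher and 96 lower in knockout kidneys. Again 0 of the 21 members were called, but 9 of them had passed the filter only through the library left out and are near the detection limit in the others. At an unadjusted p under 0.05, 3 members were higher in knockout kidneys, against 11.1% of all genes, and 1 was lower, against 8.21%. With the filter set on the 5 libraries themselves, 12 members and 16789 genes remained, of which 158 (0.941%) were called. None of the 12 was called, and with no adjustment 2 were higher, against 11.2% of all genes, and 1 lower, against 8.23%. The median log2 change over all 25 genes was 0.04, with 10 below 0 and 15 above, and the median half-width of the interval was 0.28. The intervals of the 21 members spanned -0.65 to 0.71 in all, so this is the range of change on the log2(FPKM + 1) scale that these 5 libraries allow for them, and for genes near 0 that scale compresses any fold change.

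**Figure D3:**
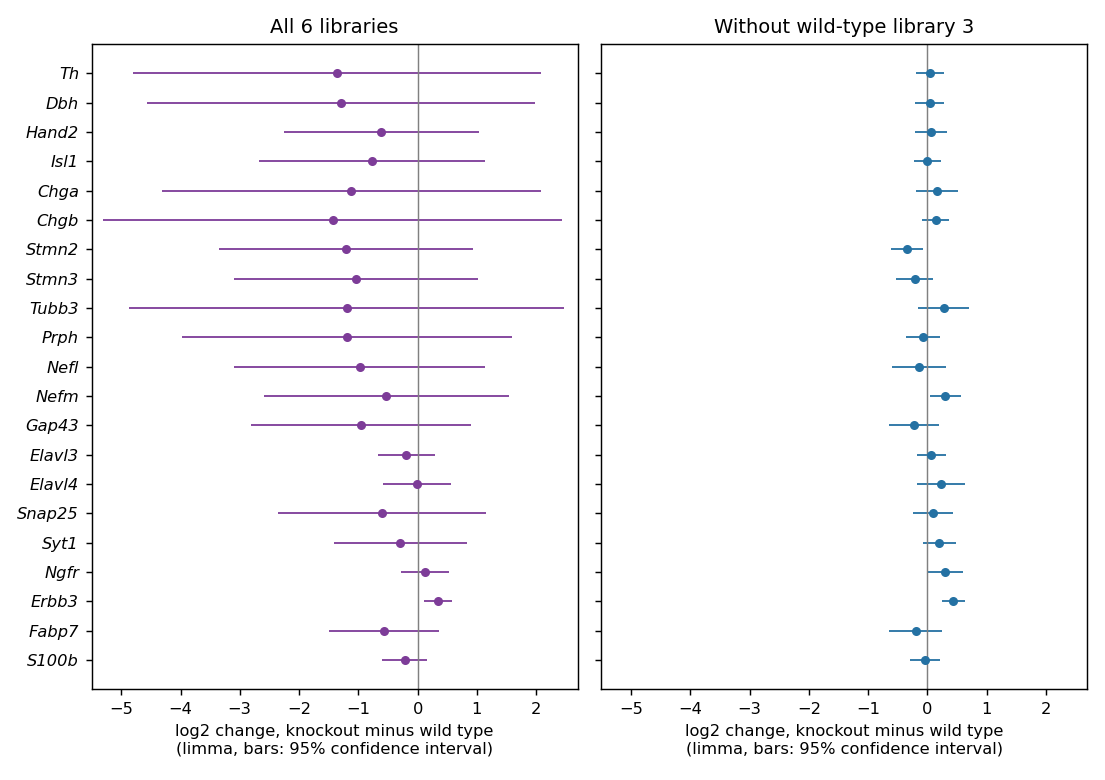
Log2 change, knockout minus wild type, of the 21 members that passed the filter, with 95% confidence intervals from limma, for all 6 libraries (left) and without wild-type library 3 (right). The intervals shrink from a median half-width of 1.90 to 0.28 once the library is left out, and the points for most neuronal genes lie close to 0.

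The 4 members past the unadjusted threshold without wild-type library 3 were Erbb3, Nefm, Ngfr and Stmn2. Of these, Nefm had passed the filter only through the library left out, and averaged 0.437 FPKM in the other 5. For Erbb3 the log2 change was 0.44 (SE 0.08, 95% interval 0.24 to 0.64), with an adjusted p of 0.0725 from limma that ranged from 0.0637 to 0.380 over all the alternatives. Nefm was at 0.30 (95% interval 0.05 to 0.56, adjusted p = 0.20, range 0.156 to 0.873) and Ngfr at 0.30 (95% interval 0.01 to 0.60, adjusted p = 0.248, range 0.206 to 0.990). Stmn2 was at -0.35 (95% interval -0.62 to -0.07, adjusted p = 0.182, range 0.182 to 0.727). None of these passed the adjusted threshold in any setting.

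Groups that do not overlap gave the same picture. With all 6 libraries the knockout values lay wholly above the wild-type values for 1 member, Erbb3, against 12.5% of all genes, and wholly below for 1, Stmn2, against 11.8%. Without wild-type library 3 they lay above for 5 of the 21 members kept (Chgb, Nefm, Syt1, Ngfr and Erbb3), against 19.7%, and below for 1 (Stmn2), against 19.7%. Chgb, Nefm and Syt1 had passed the filter only through the library left out, averaging 0.161, 0.437 and 0.372 FPKM in the other 5. An exact two-sided permutation test cannot go below 0.1 with 3 libraries against 3 or below 0.2 with 3 against 2, and these members were at those limits.

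The 12 members that also passed the filter on the 5 other libraries are shown by their ratio of means, which for Stmn3 and S100b rests on only about 4.41 to 17.7 fragments in each library. The ratio of mean levels, knockout over wild-type libraries 1 and 2, was 140% for Erbb3, 127% for Ngfr, 124% for Elavl4, 115% for Elavl3, 117% for Snap25, 161% for Tubb3, 93.3% for S100b, 84.8% for Gap43, 84.5% for Fabp7, 83.6% for Nefl, 68.4% for Stmn2 and 65.8% for Stmn3. Among the cytoskeleton and growth cone genes of the 12, Gap43, Nefl, Stmn2 and Stmn3 thus lay below 100% and only Tubb3 above it. Tubb3 was at 0.340 to 1.21 FPKM in these libraries with overlapping groups, and the groups also overlapped for Gap43, Nefl and Stmn3.

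**Figure D4:**
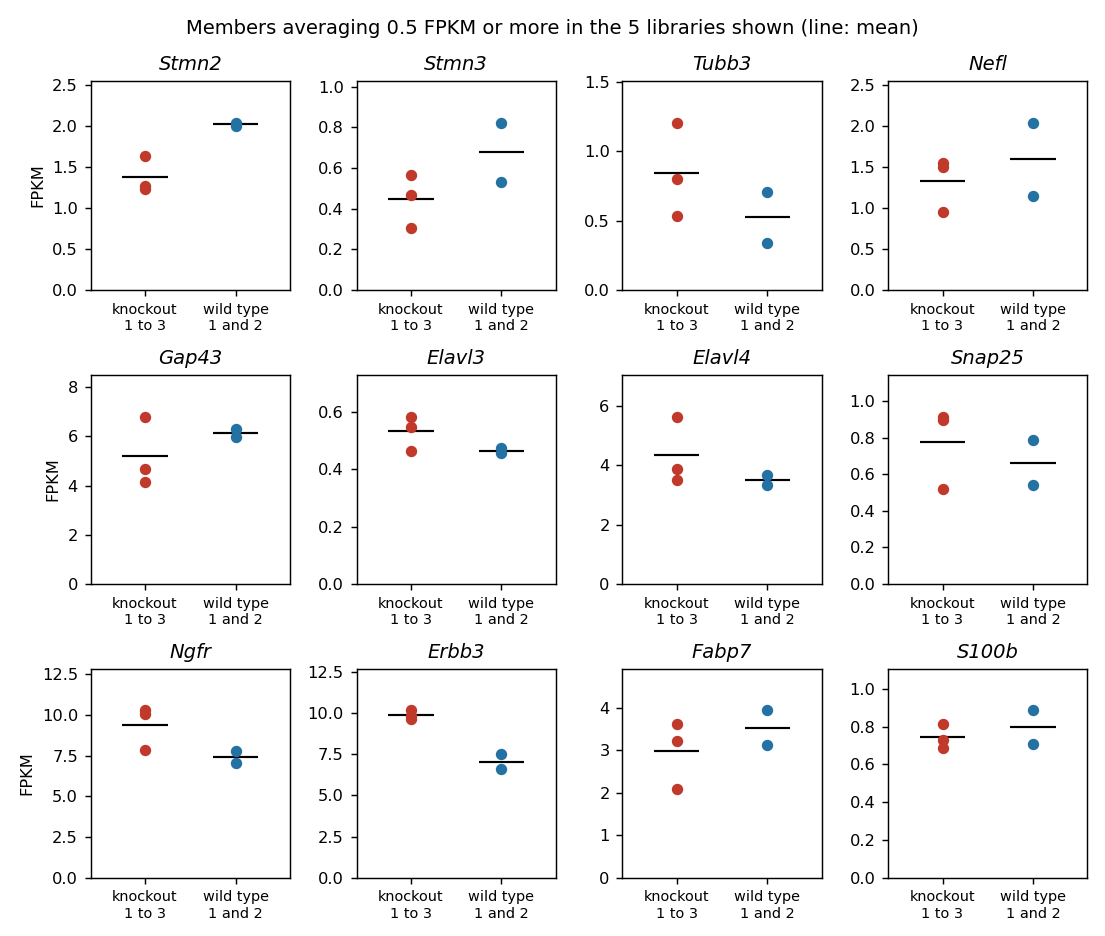
Level in FPKM of the 12 members that reached 0.5 FPKM on average in these 5 libraries, knockout libraries 1 to 3 in red and wild-type libraries 1 and 2 in blue, with a line at each mean and axes starting at 0. The groups separate for Stmn2, Ngfr and Erbb3 and overlap for the other 9.

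Other genes of the same tissues were read from lists that were also drawn up with earlier results known. Of 15 further sympathetic and chromaffin genes 9 were highest in wild-type library 3, and their summed level was 41.7 to 44.3 FPKM in knockout libraries, against 40.9, 38.7 and 102 FPKM in the wild-type libraries. Npy, the co-transmitter neuropeptide Y, made up much of this, at 7.61 to 7.98 FPKM in knockout libraries and 7.57, 5.81 and 37.4 FPKM in wild-type libraries 1 to 3. Slc6a2, the noradrenaline transporter, was at 0.700 to 0.770 FPKM in knockout libraries and 0.619, 0.767 and 3.76 FPKM in wild-type libraries 1 to 3. Pnmt, the enzyme that turns noradrenaline into adrenaline, was at 2.166, 1.13 and 1.45 FPKM in knockout libraries, against 1.85, 1.85 and 1.08 FPKM in wild-type libraries, so its lowest value was in wild-type library 3. Npy, Slc6a2 and Pnmt were picked after their values were seen.

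None of the 11 tested genes of this sympathetic list was called. With no adjustment 1 gene was higher and 1 lower at p under 0.05, against 9.14% and 6.94% of all genes. The smallest p-values belonged to Slc18a1, a vesicular monoamine transporter, at -0.44 on the log2 scale (adjusted p = 0.232, range 0.207 to 0.434), and to Gata2, a transcription factor of chromaffin and many other cells, at 0.36 (adjusted p = 0.235, range 0.0662 to 0.470). The lowest p of either range came from leaving out wild-type library 3.

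Of 24 further pan-neuronal genes 21 were highest in wild-type library 3, and their sum was 140.1 to 149.4 FPKM in knockout libraries, against 139.0, 146.6 and 250.1 FPKM in wild-type libraries 1 to 3. None of the 22 tested was called. With no adjustment 0 were higher and 4 lower at p under 0.05, against 9.14% and 6.94% of all genes. Without wild-type library 3 the counts were 4 and 4, against 11.1% and 8.21% of all genes. Celf4, an RNA-binding protein, had a log2 change of -0.52 (adjusted p = 0.0822, range 0.0619 to 0.290), and Dcx, the microtubule protein of migrating neurons, one of -0.45 (adjusted p = 0.249, range 0.223 to 0.446).

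Of 15 further Schwann cell and crest genes 7 were highest in wild-type library 3, and their summed level was 70.6 to 71.3 FPKM in knockout libraries, against 88.9, 77.4 and 83.1 FPKM in wild-type libraries 1 to 3. Gfra3, the artemin receptor found on sympathetic neurons as well as Schwann cell precursors, was at 0.198 to 0.245 FPKM in knockout libraries and 0.160, 0.324 and 3.82 FPKM in wild-type libraries 1 to 3. Gfra3 was picked after its values were seen. None of 8 tested was called. At an unadjusted p under 0.05, 0 of the 8 were higher and 2 lower, against 9.14% and 6.94% of all genes. Of these 2, Pmp22, a myelin protein also made by other cells, was at -0.67 (limma adjusted p = 0.0764, range 0.0662 to 0.207). The other, Ednrb, an endothelin receptor, was at -0.26 (limma adjusted p = 0.232, range 0.203 to 0.465).

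Markers of other neurons and neighbouring tissues were read in the same way. Sensory neuron markers summed to 6.90 to 7.68 FPKM in knockout libraries and 8.18, 9.01 and 7.59 FPKM in wild-type libraries 1 to 3. Cholinergic markers summed to 1.99 to 2.28 FPKM in knockout libraries and 2.92, 2.33 and 2.36 FPKM in wild-type libraries. For both lists the sum in wild-type library 3 lay within the range of the other 5 libraries. Outside that library P2rx3, at 3.46 to 4.69 FPKM, made up most of the sensory sum. Likewise Nos1, at 1.33 to 1.58 FPKM, made up most of the cholinergic sum, so these sums say little about the lower markers. Adrenal cortex markers summed to 6.02 to 6.76 FPKM in knockout libraries and 5.63, 5.51 and 8.09 FPKM in wild-type libraries. Among these Hsd3b1, a steroid dehydrogenase, was at 0.0428 to 0.162 FPKM in knockout libraries and 0.147, 0.0783 and 1.22 FPKM in wild-type libraries, and 6 of the 10 cortex markers were highest in wild-type library 3. Cyp11b1, Cyp21a1 and Nr5a1, which define the cortex, were at most 0.0286, 0.0416 and 0.131 FPKM in knockout libraries, at most 0.0295, 0.0837 and 0.0947 FPKM in wild-type libraries 1 and 2, and 0.156, 0.319 and 0.201 FPKM in wild-type library 3. These 4 cortex genes were picked after their values were seen. All 10 skeletal muscle markers were highest in that library. Cartilage, gonad and melanocyte marker sums in it lay within the range of the other 5 libraries. The filter left 5 of 10 sensory, 1 of 5 cholinergic, 2 of 10 adrenal cortex and 8 of 10 muscle markers for testing. It left 5 of 8 cartilage, 1 of 8 gonad and 3 of 6 melanocyte markers. In none of these 7 lists was a tested gene called. With no adjustment, Mc2r of the adrenal cortex list and Col9a1 and Col2a1 of the cartilage list were higher in knockout kidneys, 1 cartilage gene, Cnmd, was lower, and the other 5 lists had 0 genes at p under 0.05. Without wild-type library 3, Mc2r, 3 cartilage genes, Inha of the gonad list and Pmel of the melanocyte list were higher and 1 cartilage gene lower at that threshold, again with none called. Cnmd was picked after its values were seen. The tissue from which the nerve and muscle transcripts of wild-type library 3 came was not tested.

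**Figure D5:**
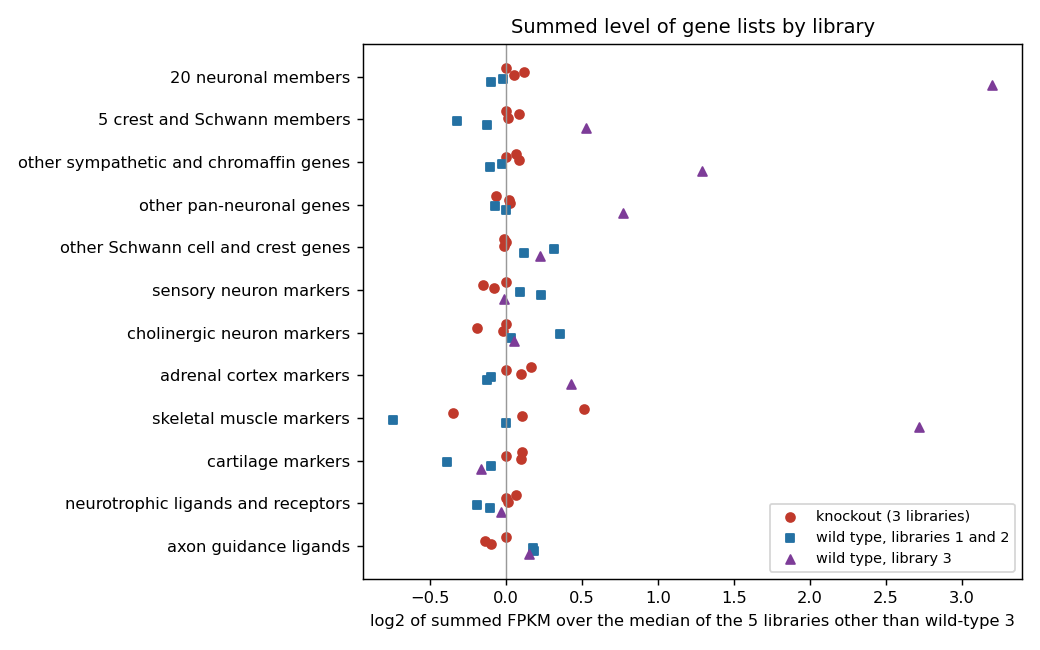
Summed FPKM of 12 gene lists in each library, as log2 of the ratio to the median of the 5 libraries other than wild-type 3 (0 marks that median). Wild-type library 3 lies far to the right for the 20 neuronal members and the skeletal muscle markers, less far for the further sympathetic and pan-neuronal genes, and among the other libraries for sensory, cholinergic, cartilage, neurotrophic and axon guidance lists.

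Secreted and membrane-bound cues for growing axons did not all go one way. Of 11 axon guidance ligands 3 were called, all lower in knockout kidneys, against 0.734% of all genes called. With no adjustment 2 were higher and 4 lower at p under 0.05, against 9.14% and 6.94% of all genes. Without wild-type library 3 the counts were 3 and 6, against 11.1% and 8.21% of all genes. Slit1, Sema3f and Efnb2, picked after their values were seen, had all knockout values above all wild-type values but were not called. Ntn1 (netrin-1), a secreted cue for axons and vessels, was at 2.90, 2.65 and 2.33 FPKM in knockout libraries, against 8.78, 10.2 and 11.6 FPKM in wild-type libraries. Its log2 change was -1.62 (SE 0.11, adjusted p = 0.00138, range 0.000969 to 0.0355 over the alternatives).

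Reln (reelin), a secreted glycoprotein that positions neurons, was at 6.56, 5.22 and 5.66 FPKM in knockout libraries, against 21.5, 20.6 and 17.5 FPKM in wild-type libraries, a log2 change of -1.61 (adjusted p = 0.00138, range 0.000944 to 0.0150). Sema3a (semaphorin 3A), which repels sympathetic and sensory axons, was at 9.75, 9.87 and 10.2 FPKM in knockout libraries, against 16.6, 15.7 and 16.1 FPKM in wild-type libraries, a log2 change of -0.65 (adjusted p = 0.00438, range 0.00337 to 0.0599). Knockout and wild-type values did not overlap for any of the 3 genes, and these calls did not rest on wild-type library 3. The 3 genes remained called without it, at adjusted p = 0.00410 for Ntn1, 0.00216 for Reln and 0.0150 for Sema3a.

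Of 20 neurotrophic ligands and receptors, which keep neurons and Schwann cells alive and also act in kidney branching, none was called. At an unadjusted p under 0.05, 4 were higher and 1 lower, against 9.14% and 6.94% of all genes. Without wild-type library 3 the counts were 8 and 1, against 11.1% and 8.21% of all genes. The 2 with the smallest p were Ret, the receptor of the GDNF family, with a log2 change of 0.36 (adjusted p = 0.201, range 0.0808 to 0.402), and its co-receptor Gfra2, with 0.39 (adjusted p = 0.212, range 0.164 to 0.402). Erbb2, the partner of Erbb3, was at 13.2, 11.6 and 11.5 FPKM in knockout libraries, against 7.80, 10.1 and 10.5 FPKM in wild-type libraries, and the ligand Nrg1 at 3.52, 4.11 and 3.84 FPKM in knockout libraries, against 1.63, 3.24 and 3.26 FPKM in wild-type libraries. For both genes all knockout values lay above all wild-type values, as for 12.5% of all genes, but neither was called, and both were picked after their values were seen.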

How the data were processed

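RNA from 6 whole-kidney libraries, 3 knockout and 3 wild-type, was grouped by the titles. The authors deposited FPKM values for 24749 Ensembl identifiers, of which 24469 had a symbol. The submitters' processing notes name bcl2fastq 2.17.1.14, Salmon and the build GRCm38 (mm10). Salmon's version, the annotation, the summing to genes and the strand setting are not stated there.

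The 25 members and all other lists were chosen with earlier results of these data known. FPKM values are not counts, so log2(FPKM + 1) was tested with limma 3.58.1 in R 4.3.3, with genotype as the only term and trended, robust empirical Bayes moderation. A gene was kept where its average over all 6 libraries reached 0.5 FPKM, which left 16899. Calls needed an adjusted p (Benjamini-Hochberg over those genes) under 0.05. Log2 changes are knockout minus wild type on that scale, which understates changes of low genes. Fits without wild-type library 3 keep the same genes. The table holds no counts, and depth was approximated from the lowest FPKM steps on genes with 1 transcript of at least 2000 bases. Named genes are the members, called genes of each other list or its 2 with the smallest p, and the 10 with the largest excess of wild-type library 3. Genes outside that rule are said to be picked after their values were seen. Other lists cover sympathetic, pan-neuronal, Schwann cell, neurotrophic, axon guidance, sensory, cholinergic, adrenal cortex, skeletal muscle, cartilage, gonad, melanocyte, nephron, stromal and endothelial genes. Positions and overlaps are from GENCODE M21 and promoter windows from RefSeq GRCm38.p6. Alternatives changed the pseudocount, filter, scaling, moderation and replicate block and left out each library. The procedure was tested on simulated data.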

Additional observations from a re-analysis of the deposited data

How the results depend on the processing

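No member was called under any setting, and 0 of the 21 tested members changed sign in the 7 settings that kept all libraries. Leaving out wild-type library 3 turned the sign of 11, whose changes over the leave-one-out fits ran from -2.05 to 0.0355 for Th, -1.96 to 0.0352 for Dbh, -0.96 to 0.0594 for Hand2, -1.80 to 0.16 for Chga, -2.22 to 0.14 for Chgb, -2.02 to 0.27 for Tubb3, -0.96 to 0.30 for Nefm, -0.32 to 0.0644 for Elavl3, -0.18 to 0.23 for Elavl4, -1.01 to 0.0912 for Snap25 and -0.55 to 0.20 for Syt1. Elavl4 also turned without knockout library 1 or 3. The cause of these turns was the library left out, by construction. The count of called genes was 124 and ran from 52 to 147 over the leave-one-out fits, the lowest without wild-type library 2, with 66, 57 and 58 without knockout libraries 1, 2 and 3.

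Settings that left out wild-type library 3 together with another change were added after seeing the data. Without wild-type library 3 the 147 calls became 97 with no filter, 97 with libraries rescaled to equal sums and 61 to 191 with a further library left out, and the members' median of 0.04 became 0.16 with a pseudocount of 0.1. With a further library left out the change ran from -0.0075 to 0.0111 for Isl1, -0.21 to 0.0629 for Prph, -0.39 to 0.11 for Nefl, -0.0168 to 0.199 for Snap25 and -0.11 to 0.0289 for S100b. The cause was not tested, beyond the fewer libraries fitted.

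A replicate block gave 32 calls and 0 called members, and Sema3a was no longer called (adjusted p = 0.0599). Same-numbered libraries deviated together with r = 0.0238, -0.0422 and 0.0504, so no pairing by number was seen, and not every library correlated best with its own number. Such values from 3 libraries per group cannot show whether same-numbered libraries shared a litter. With 2 wild-type libraries left, a level of a few fragments limits every statement on Th, Dbh, Phox2a, Hand2, Chgb and Foxd3.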

Other observations

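Several neuronal genes outside the lists were also high in wild-type library 3 alone, chosen after their values were seen. Rgs4, a regulator of G-protein signalling, was at 0.195 to 0.315 FPKM in knockout libraries, against 0.423, 0.190 and 7.32 FPKM in wild-type libraries 1 to 3. Stmn4, a relative of Stmn2, was at 0.0532 to 0.0641 FPKM in knockout libraries, against 0.129, 0.0579 and 4.47 FPKM in wild-type libraries. Resp18, an endocrine granule protein, was listed at 0 in the other 5 libraries and at 5.87 FPKM in wild-type library 3.

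Many of the genes next to the members in that ranking are short microRNA models listed at 0 in the other 5 libraries, such as Mir339 at 11.6 FPKM and Mir6414 at 11.3 FPKM in wild-type library 3. Of the 50 genes with the largest excess, 7 were members and 43 were in none of the lists.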
